A study of Homo sapiens with 12 samples.

Results

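Transsulfuration, glutathione turnover and CHAC1 were followed in HuH-7 cells through 10 genes: CHAC1, CTH, CBS, GCLC, GCLM, GSS, GSR, GGCT, OPLAH and GPX4. A gene probe of the array belonged to the set when the scanner files gave it one of these names. The 10 genes, of 29123 gene names on the array, were represented by 14 of 41000 gene probes, with 2 probes each for CBS, GCLC, GCLM and GSR. All 14 probes passed the filter on dim probes, as did 33467 probes of 24168 genes in all, and all 14 were well above background and unsaturated on every array.

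HuH-7 is an established human hepatocellular carcinoma line, and the cells of all groups carried the p53 mutation Y220C. They were grown in RPMI medium and exposed for 24 h to 28 µM SLMP53-2, to 42 µM SLMP53-2 or to the solvent DMSO, and their total RNA was labelled with Cy3 and hybridised to 1-colour Agilent arrays. SLMP53-2 was studied as a compound that reactivates mutant p53, and its doses stand for 2 and 3 times the IC50 (one field of the labels writes 48 µM for the higher dose, which is called 42 µM here). Each of the 3 groups held 4 biological replicates, so that 12 arrays on 5 slides were compared, and only 1 cell line was measured.

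On the arrays, 65.0% to 85.0% of the gene spots were well above background. As a check of the labelled cell type, all 12 hepatocyte genes were measured, with a median log2 level of 12.87 in DMSO that ran from 6.73 for HNF4A to 16.14 for ALB. The median level was 6.36 for 3 fibroblast genes, of which COL1A2 was at 10.12, 7.14 for the 3 measured of 4 leukocyte genes and 6.34 for 3 endothelial genes. With the brightest probe of each gene, no gene of these 4 marker lists was called by limma at either dose. At 42 µM, 1 hepatocyte and 1 leukocyte gene had an unadjusted limma p under 0.05, a limit for which the share over all genes was not counted. Over all genes, 0.0% were called at 28 µM and 724 of 24168 at 42 µM, so a count of 0 in these lists is near that share. A dimmer probe of the hepatocyte gene FGA passed at 42 µM (-0.64, limma adjusted p = 0.0351), where its brightest probe gave -0.29. With CHAC1, CTH, OPLAH and the brighter CBS probe, 28 µM replicate 4 lay below the other 3 arrays of its group and close to the DMSO arrays, so results at 28 µM are given with and without it. With the dimmer CBS probe it lay inside its group. limma's array weights, taken over all probes, did not single it out, with 0.718 for this array and a lowest weight of 0.306 for 28 µM replicate 1.

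Glutathione is a tripeptide of glutamate, cysteine and glycine and the main thiol buffer of hepatocytes. Cysteine is either imported as cystine or made from homocysteine by transsulfuration, a route that is prominent in liver. The γ-glutamyl cycle takes glutathione apart again, outside the cell at the membrane and inside it through cytosolic cyclotransferases such as CHAC1, a known target of the ATF4 and CHOP arm of the unfolded protein response.

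At 42 µM, 4 of the 10 genes rose, namely CHAC1, CTH, CBS and OPLAH, and none fell. These genes act in glutathione breakdown, in both steps of transsulfuration and in the reopening of 5-oxoproline. The genes of glutathione synthesis, GCLC, GCLM and GSS, and the reductase GSR did not pass the test. A gene was called when its brightest probe had a limma adjusted p (Benjamini-Hochberg over all 33467 probes) below 0.05 and moved by 0.6 or more on the log2 scale. Of all 24168 genes, 1.58% were called higher and 1.42% lower in this comparison. These were 381 higher and 343 lower genes, a split that another scaling of the same values, to the 75th percentile of each array, turned to 256 and 420. The median log2 fold change was 0.34 over the 10 genes and -0.02 over all genes. In these bulk samples, more RNA per cell and more cells that carry the transcript cannot be told apart.

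CHAC1, which cleaves glutathione into 5-oxoproline and cysteinylglycine, changed most. Its probe (hg19, chr15:41248522-41248581) read 8.63, 9.54, 9.13 and 8.82 on DMSO replicates 1 to 4 on the normalized log2 scale. The values at 28 µM were 11.85, 11.48, 11.80 and 8.99, and those at 42 µM were 12.32, 12.45, 11.97 and 11.42. All 4 arrays at 42 µM lay above all DMSO arrays, and so did 3 of 4 at 28 µM, while 28 µM replicate 4 lay inside the DMSO range. The log2 fold change was 3.01 at 42 µM (SE 0.51, n = 4 per group, limma adjusted p = 0.014), which is 8.05-fold and the third largest absolute change among the 33467 probes. At 28 µM it was 2.00 (SE 0.51, limma adjusted p = 0.195), which was not called.

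The promoter of CHAC1 is shown because the gene moved most and because its window alone, among the members with a window, held the C/EBP-ATF composite site searched for. CTH, which moved with it, and GCLC and GCLM, which were not called, are shown beside it. The windows run from 250 bases before to 50 bases after the RefSeq start (GRCh38.p14), on the strand of the gene, at chr15:40953221-40953520 (+) for CHAC1, chr1:70411018-70411317 (+) for CTH, chr6:53545052-53545351 (-) for GCLC and chr1:93909381-93909680 (-) for GCLM. Capitals mark matches to any of the 3 motifs searched on both strands.
CHAC1: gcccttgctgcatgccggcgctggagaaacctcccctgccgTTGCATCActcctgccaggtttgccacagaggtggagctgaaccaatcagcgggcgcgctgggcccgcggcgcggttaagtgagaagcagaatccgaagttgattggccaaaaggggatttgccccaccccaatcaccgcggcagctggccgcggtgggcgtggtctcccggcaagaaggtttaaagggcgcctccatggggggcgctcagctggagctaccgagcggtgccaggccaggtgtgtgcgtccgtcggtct
CTH: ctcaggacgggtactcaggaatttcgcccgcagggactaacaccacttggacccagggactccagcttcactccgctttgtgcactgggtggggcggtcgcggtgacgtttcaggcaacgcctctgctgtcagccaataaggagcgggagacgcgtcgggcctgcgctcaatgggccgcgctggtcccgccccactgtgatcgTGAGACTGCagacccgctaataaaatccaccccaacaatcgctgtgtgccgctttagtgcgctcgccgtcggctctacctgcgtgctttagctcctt
GCLC: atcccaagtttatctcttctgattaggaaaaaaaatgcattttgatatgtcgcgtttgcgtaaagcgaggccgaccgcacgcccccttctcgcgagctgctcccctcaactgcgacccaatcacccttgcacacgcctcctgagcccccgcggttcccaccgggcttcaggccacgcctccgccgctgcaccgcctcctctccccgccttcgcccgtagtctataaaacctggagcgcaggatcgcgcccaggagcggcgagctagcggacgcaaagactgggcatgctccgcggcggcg
GCLM: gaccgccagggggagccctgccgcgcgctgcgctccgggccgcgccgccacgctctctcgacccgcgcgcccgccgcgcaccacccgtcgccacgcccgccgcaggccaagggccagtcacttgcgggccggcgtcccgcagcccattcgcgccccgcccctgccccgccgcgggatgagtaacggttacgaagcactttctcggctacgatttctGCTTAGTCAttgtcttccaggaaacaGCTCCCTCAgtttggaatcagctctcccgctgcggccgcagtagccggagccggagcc

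Of the 10 genes, 6 had a promoter window: these 4, CBS and GPX4. CBS and GPX4 had more than 1 window each and are not printed. A gene was counted when any of its windows matched, while the shares over all are of single windows, so the 2 are not fully alike. TGATGNAA, the C/EBP-ATF composite site, was present in 3.62% of all 35116 windows and in 1 of the 6 genes, CHAC1, where it reads TGATGCAA on the opposite strand from position -209. TGACGTCA, the CRE, was in 1.85% of all windows and in none of the 6 genes. TGANNNNGC, the core of the antioxidant response element, is short and was in 41.8% of all windows. It was found in 3 of the 6 genes, as TGAGACTGC in CTH, as TGACCGCGC in CBS and as TGACTAAGC and TGAGGGAGC in GCLM. A match describes the letters of the window and not a bound site.

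**Figure D1:**
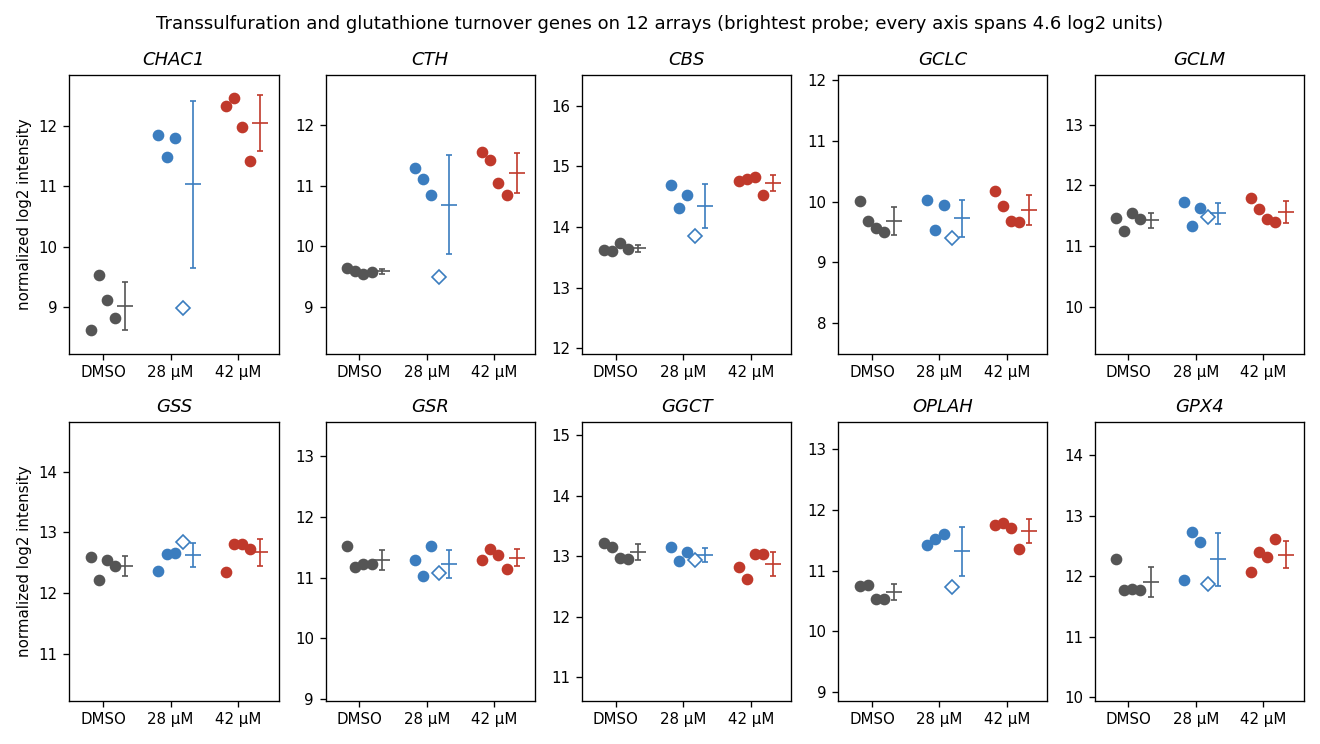
Normalized log2 intensity of the brightest probe of each of the 10 genes on the 12 arrays (y axis, 4.6 log2 units in every panel) by group (x axis). Points are arrays, the open diamond is 28 µM replicate 4, and the bar beside each group is its mean ± SD (n = 4). In CHAC1, CTH, CBS and OPLAH the 42 µM arrays lie above all DMSO arrays, and the open diamond lies with or near the DMSO arrays.

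Both enzymes of transsulfuration rose at 42 µM. CBS condenses homocysteine with serine to cystathionine, and CTH splits cystathionine to cysteine. CTH (chr1:70905041-70905100) read 9.64, 9.59, 9.54 and 9.57 on the DMSO arrays, 11.30, 11.11, 10.84 and 9.50 at 28 µM and 11.55, 11.41, 11.03 and 10.84 at 42 µM. The DMSO arrays were close together, every 42 µM array was above them, and 28 µM replicate 4 was below the lowest of them. The log2 fold change of CTH was 1.63 at 42 µM (SE 0.31, limma adjusted p = 0.0167), or 3.09-fold, and 1.10 at 28 µM (SE 0.31, limma adjusted p = 0.218).

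CBS was measured by 2 probes, and both showed the change. The brighter one (chr21:44473319-44473378) read 13.63, 13.60, 13.73 and 13.63 in DMSO, 14.69, 14.31, 14.53 and 13.85 at 28 µM and 14.76, 14.79, 14.82 and 14.52 at 42 µM. The dimmer one, whose ends lie on either side of an intron (chr21:44476985-44478301), read 9.22, 8.98, 9.74 and 9.52, then 9.98, 10.29, 10.52 and 10.09, then 9.92, 10.85, 10.49 and 10.66. With both probes all arrays of each dose lay above all DMSO arrays, including 28 µM replicate 4. The log2 fold change at 42 µM was 1.08 (SE 0.16, limma adjusted p = 0.0112) with the brighter and 1.11 (SE 0.21, limma adjusted p = 0.0166) with the dimmer probe, and at 28 µM it was 0.70 (SE 0.16, limma adjusted p = 0.175) and 0.85 (SE 0.21, limma adjusted p = 0.19).

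OPLAH, the 5-oxoprolinase that turns 5-oxoproline back into glutamate, was the fourth gene called. Its probe (chr8:145106202-145106261) read 10.75, 10.76, 10.54 and 10.52 in DMSO, 11.42, 11.53, 11.61 and 10.72 at 28 µM and 11.76, 11.79, 11.70 and 11.36 at 42 µM. Again the 42 µM arrays were all above the DMSO arrays and 28 µM replicate 4 was inside the DMSO range. The log2 fold change was 1.01 at 42 µM (SE 0.18, limma adjusted p = 0.0156), or 2.01-fold, and 0.68 at 28 µM (SE 0.18, limma adjusted p = 0.206). GGCT (chr7:30536358-30536417), the γ-glutamylcyclotransferase that yields 5-oxoproline from γ-glutamyl amino acids, was not called, with a difference of -0.19 on the log2 scale at 42 µM (SE 0.12, limma adjusted p = 0.521), with values between 12.63 and 13.21 on all 12 arrays.

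The enzymes of glutathione synthesis gave small differences. GCLC, the catalytic subunit of glutamate-cysteine ligase, read 10.02, 9.68, 9.56 and 9.50 in DMSO and 10.18, 9.93, 9.68 and 9.66 at 42 µM with its brighter probe (chr6:53362197-53362256), so that the groups overlapped. Its log2 fold change at 42 µM was 0.18 (95% interval -0.20 to 0.55, limma adjusted p = 0.736), and the dimmer probe gave 0.19 (limma adjusted p = 0.598). GCLM, the modifier subunit of the same ligase, had a log2 fold change of 0.14 with its brighter probe at chr1:94351254-94351313 (95% interval -0.13 to 0.41, limma adjusted p = 0.698). Its dimmer probe (chr1:94354534-94354593) read 9.21, 9.87, 8.99 and 9.76 in DMSO and 10.73, 9.40, 9.91 and 10.30 at 42 µM, a log2 fold change of 0.63 with a wide interval (-0.06 to 1.32, limma adjusted p = 0.386). GSS (chr20:33516382-33516441), glutathione synthetase, had a log2 fold change of 0.22 (95% interval -0.09 to 0.53, limma adjusted p = 0.532).

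GSR (chr8:30536969-30537028), which reduces oxidised glutathione, differed by 0.04 on the log2 scale at 42 µM with its brighter probe (95% interval -0.25 to 0.33, limma adjusted p = 0.947) and by -0.05 with its dimmer probe (limma adjusted p = 0.928). GPX4 (chr19:1105797-1106421), the selenoenzyme that uses glutathione to reduce lipid hydroperoxides, read 12.28, 11.78, 11.79 and 11.77 in DMSO, 11.94, 12.72, 12.57 and 11.88 at 28 µM and 12.07, 12.41, 12.32 and 12.62 at 42 µM. DMSO replicate 1 lay above the other DMSO arrays and within the treated range. The log2 fold change of GPX4 at 42 µM was 0.45 (95% interval 0.01 to 0.89, limma unadjusted p = 0.0449, adjusted p = 0.307), which was not called. For 5 of the 6 genes that were not called at 42 µM (GCLC, GCLM, GSS, GSR and GGCT), the 95% interval of the brightest probe lay within the limit of 0.6 on both sides, and for GPX4 it did not.

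**Figure D2:**
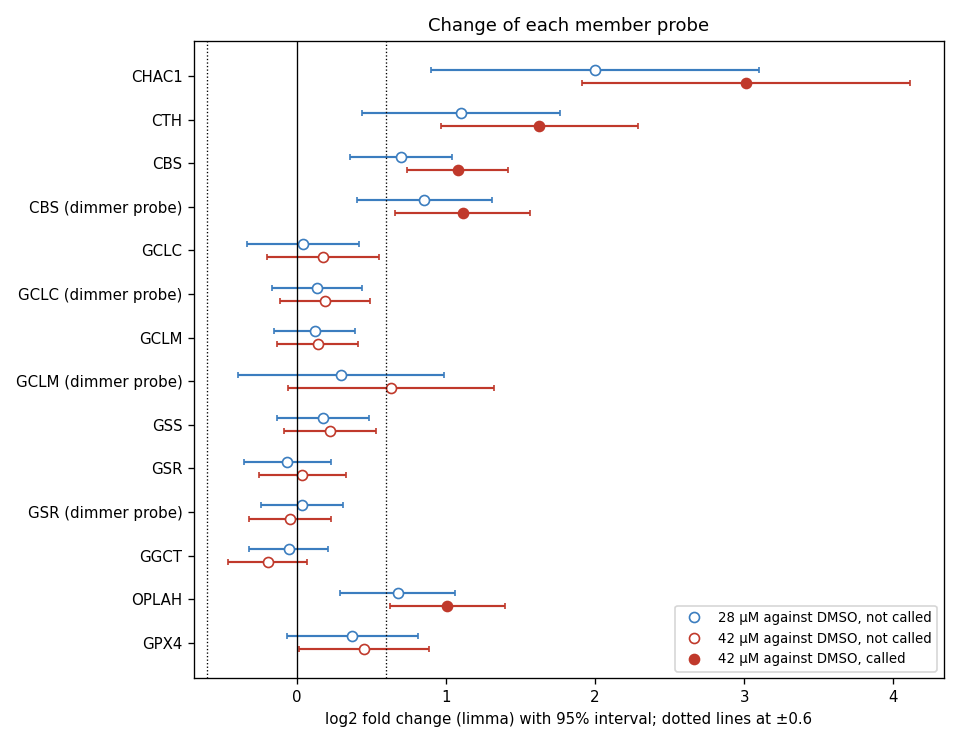
Log2 fold change of each of the 14 probes against DMSO (x axis) at 28 µM and 42 µM, with limma's 95% interval as bars. Filled points were called and dotted lines stand at ±0.6. The 5 filled points belong to CHAC1, CTH, CBS (both probes) and OPLAH at 42 µM.

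At 28 µM none of the 10 genes was called, nor was any of the 24168 genes (0.0%), and the smallest limma adjusted p over all probes was 0.115. CHAC1, CTH, CBS and OPLAH had an unadjusted p under 0.05 and a fold change past the limit, as did 652 genes in all. Without 28 µM replicate 4, a setting in which 1.45% of all genes were called higher, these 4 genes were called, with log2 fold changes of 2.68 (SE 0.26) for CHAC1, 1.50 (SE 0.17) for CTH, 0.86 (SE 0.12) for CBS and 0.87 (SE 0.13) for OPLAH and limma adjusted p-values of 0.00042, 0.00125, 0.00448 and 0.00563. The dimmer CBS probe then had an adjusted p of 0.068. The array was singled out on the values of these same genes, so their calls without it are no independent evidence of a change at 28 µM. The other 6 genes stayed uncalled.

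By overlap of the arrays alone, with all 4 arrays of each group, CHAC1, CTH, CBS and OPLAH lay wholly above DMSO at 42 µM, where 5.93% of all genes did so. At 28 µM CBS lay wholly above DMSO, where 2.79% of all genes did. Both doses were set against the same 4 DMSO arrays, so the comparisons are not independent.

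The doses were not separated. No gene passed the test between 42 and 28 µM (0.0% of 24168 genes; 73 genes had an unadjusted p under 0.05 and a fold change past the limit). CHAC1 was higher by 1.01 on the log2 scale at 42 µM (95% interval -0.09 to 2.11), CTH by 0.52 (-0.14 to 1.19), CBS by 0.38 (0.04 to 0.72) and OPLAH by 0.33 (-0.05 to 0.72), each with a limma adjusted p of 1. Without 28 µM replicate 4 the differences were 0.33 (SE 0.26), 0.13 (SE 0.17), 0.22 (SE 0.12) and 0.13 (SE 0.13).

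Groups were spread over slides, and slides that held both a treated and a DMSO array gave the difference within a slide. For 42 µM the 3 such slides gave 3.50, 3.32 and 2.43 for CHAC1, 1.98, 1.88 and 1.44 for CTH, 1.13, 1.06 and 1.23 for CBS and 1.23, 1.25 and 0.94 for OPLAH on the log2 scale. The dimmer CBS probe was less even, with 0.40, 1.11 and 1.51 on the same slides. The direction was thus the same on each of the 3 slides for each of the 4 genes. For 28 µM, 2 slides gave 3.17 and 3.02 for CHAC1, 1.20 and 1.72 for CTH, 0.90 and 1.06 for CBS and 0.86 and 0.89 for OPLAH. The slide of 28 µM replicate 4 gave -0.14 for CHAC1, -0.04 for CTH, 0.12 for CBS (0.35 with its dimmer probe) and 0.18 for OPLAH. With slide as a fixed block in the fit, no member was called at 42 µM (CHAC1 3.09, limma adjusted p = 0.0598), and 1 gene of the array was. With slide as a random block the 4 genes were called (CHAC1 3.03, limma adjusted p = 0.00831).

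**Figure D3:**
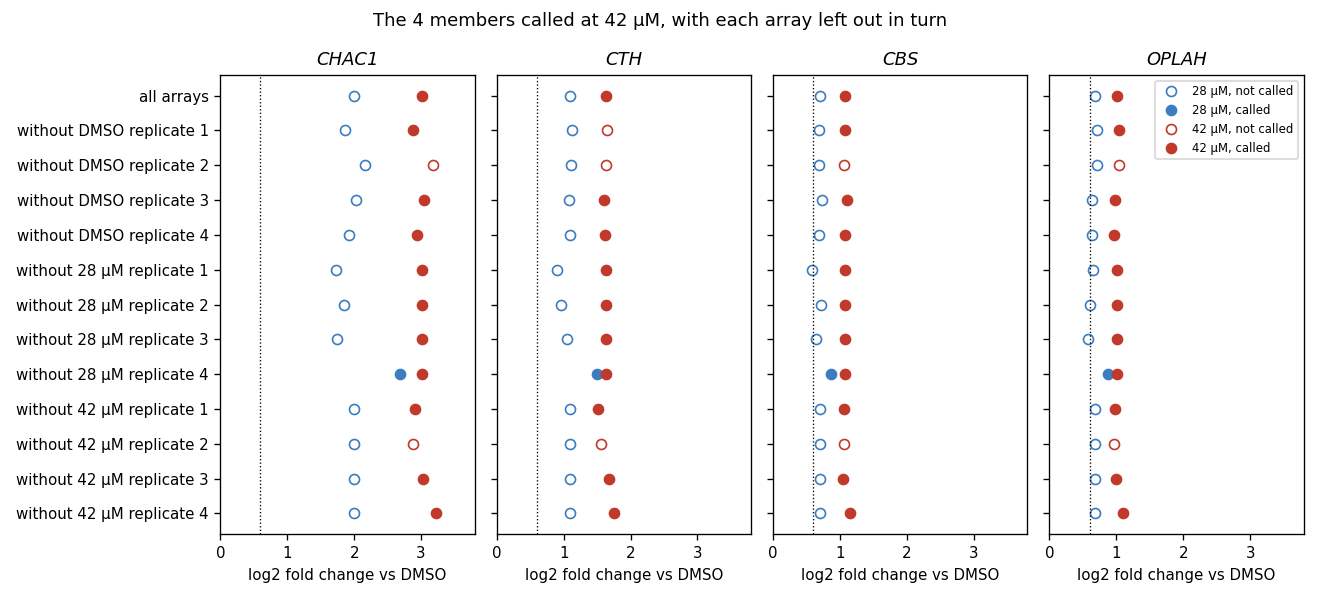
Log2 fold change against DMSO (x axis) of CHAC1, CTH, CBS and OPLAH with all arrays and with each array left out in turn (y axis). Filled points were called. The points at 42 µM move little along the axis, but all 4 genes lose the call without DMSO replicate 2 or without 42 µM replicate 2, and the points at 28 µM are filled only without 28 µM replicate 4.

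The size of the 42 µM change held while the call did not always hold. Over the 12 fits that leave out 1 array, the log2 fold change of CHAC1 ranged from 2.87 to 3.22, yet without 42 µM replicate 2 it was 2.87 with a limma adjusted p of 0.0607 and without DMSO replicate 2 it was 3.18 with an adjusted p of 0.0505. In these 2 fits no gene of the array was called. Without DMSO replicate 1, CTH alone of the 4 lost its call (1.64, limma adjusted p = 0.0506). The groups share their spread in the fit, so 28 µM replicate 4 also entered the SE at 42 µM. Without that array the SE of CHAC1 at 42 µM was 0.24 (limma adjusted p = 5.85e-05), and 2.23% of all genes were called higher. As the array was singled out on these same genes, the smaller SE is no independent evidence.

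The arrays on which CHAC1 was high or low were shared with other genes. Over the 12 arrays Pearson's r with the CHAC1 probe was 0.993 for LOC101928891, 0.987 for STC2, 0.986 for VEGFA, 0.985 for XLOC_l2_015849 and 0.983 for SAT2, the 5 genes most like it. Among the members r was 0.977 for CTH, 0.976 for OPLAH and 0.968 for CBS, and it lay between -0.39 and 0.59 for the other 6. The arrays fall into a low level (DMSO and 28 µM replicate 4) and a high one, so r here mostly reflects that step, and the arrays share treatment.

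The ATF4 arm of the stress response holds transcription factors and their partners. The median log2 fold change of its 7 genes was 2.13 at 42 µM. Of all genes, 1.58% were called higher and 1.42% lower there, and of the 7 genes 6 rose and none fell. These were NUPR1 (2.61, SE 0.53, limma adjusted p = 0.0209), DDIT3, which encodes CHOP (2.19, SE 0.41, adjusted p = 0.0166), TRIB3 (2.19, SE 0.40, adjusted p = 0.0159), ATF3 (2.13, SE 0.42, adjusted p = 0.0196), CEBPB and ATF4 itself (0.76, SE 0.12, adjusted p = 0.0125). CEBPG was not called (0.95, SE 0.26, limma adjusted p = 0.0765), nor were dimmer second probes of ATF3 (0.32, adjusted p = 0.21) and CEBPB (0.10, adjusted p = 0.88). The dimmer second probes of ATF4 (1.18, limma adjusted p = 0.0152) and TRIB3 (2.21, adjusted p = 0.0112) passed. The median at 28 µM was 1.42, with none called by limma and all 7 at an unadjusted p under 0.05. The share of all genes with such a p alone was not counted.

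Supply of cystine and γ-glutamyl amino acids was mixed. Of 25 genes, 22 were measured, of which 4 rose and 1 fell at 42 µM, where 1.58% of all genes rose and 1.42% fell. The median was 0.31. An unadjusted limma p under 0.05 was found for 13 of the 22 genes, 11 of them higher. Over all genes, 1346 of 24168 had such a p together with a change past the limit. The share with such a p alone was not counted. SLC3A2, the heavy chain of the cystine and other amino acid transporters, rose by 2.19 (SE 0.30, limma adjusted p = 0.0112), the neutral amino acid transporter SLC1A4 by 1.45 (SE 0.25, adjusted p = 0.0146), the exporter ABCC3 by 0.68 (SE 0.15, adjusted p = 0.0318) and GGACT by 0.64 (SE 0.15, adjusted p = 0.04). SLC1A1, a glutamate and cysteine transporter, fell by 0.81 on the log2 scale (SE 0.15, adjusted p = 0.0166), and its dimmer probe gave -0.13 (adjusted p = 0.751). SLC7A11, the light chain of the cystine antiporter, gave 1.81 with its brightest probe (SE 0.53, adjusted p = 0.0904), which was not called, while its 2 dimmer probes gave 1.66 with an adjusted p of 0.0207 and 0.50 with an adjusted p of 0.252. CHAC2, the paralogue of CHAC1, gave -0.51 (SE 0.18, adjusted p = 0.174).

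Among the peroxidases, redoxins and glutathione transferases, no brightest probe passed the test. None of 22 peroxidases and redoxins and none of 18 measured glutathione transferases of 19 was called by limma at 42 µM, with median log2 fold changes of -0.15 and -0.10, and 8 and 4 of them had an unadjusted p under 0.05. Of all genes, 724 of 24168 were called in either direction, so a count of 0 in lists of this size is near the share over all genes. The members of largest absolute change were GPX2 (-1.19, limma adjusted p = 0.0658) and GPX3 (-0.77, adjusted p = 0.33) in the first list and GSTM3 (-0.61, adjusted p = 0.111) and GSTM2 (-0.48) in the second. A dimmer probe of GSTM3 passed the test (-0.76, SE 0.17, limma adjusted p = 0.0308). Of 21 genes of the methionine cycle and sulfur amino acid use, 1 was called, a count that is also near the share over all genes. It was BHMT, which remethylates homocysteine with betaine and fell by 0.66 on the log2 scale (SE 0.17, limma adjusted p = 0.0492). The median of this list was 0.05. An unadjusted limma p under 0.05 was found for 4 of the 21 genes, 1 of them higher. For the counts at an unadjusted p in these lists, the share over all genes was not counted. The dimmer BHMT probe gave -0.18 (adjusted p = 0.6).

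In the NRF2 arm, 1 of 11 genes was called higher at 42 µM, the sulfiredoxin SRXN1 (0.64, SE 0.13, limma adjusted p = 0.0239), where 1.58% of all genes were. The median was 0.33, and 5 of the 11 genes had an unadjusted limma p under 0.05, all of them higher. None of 17 measured ferroptosis genes of 18 was called by limma, with 2 at an unadjusted p under 0.05 and a median of 0.06. For both lists the share of all genes with such a p alone was not counted. With 724 of 24168 genes called in either direction, a count of 0 in a list of this size is near the share over all genes. In the ferroptosis list the largest values were those of SLC7A11, which is also in the NRF2 arm, and of FTL (0.51, adjusted p = 0.551).

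**Figure D4:**
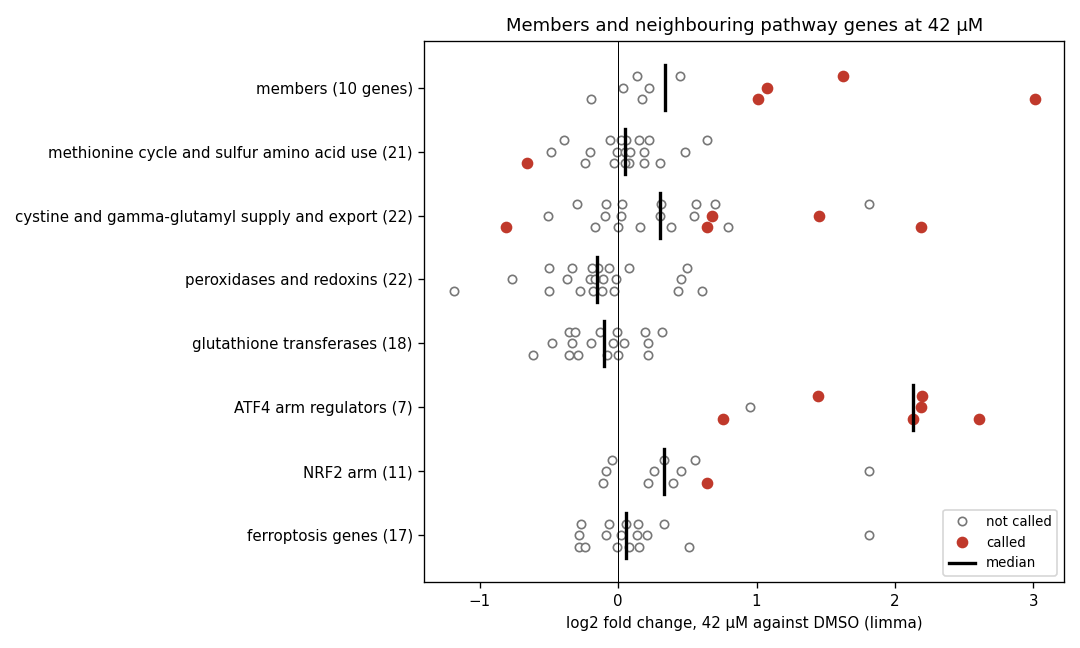
Log2 fold change at 42 µM against DMSO (x axis) of the 10 genes and of the measured genes of 7 neighbouring lists (y axis, number measured in parentheses), brightest probe per gene. Filled points were called and black lines are medians. The ATF4 arm has the highest median, 2.13, and the peroxidase and transferase lists have medians just below 0.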

How the data were processed

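RNA of HuH-7 cells (DMSO, 28 µM and 42 µM SLMP53-2, 24 h, 4 biological replicates each) was measured on 12 1-colour Agilent arrays. The authors deposited the scanner output of Agilent Feature Extraction (10.7.3.1 in the submitters' processing notes), whose mean and local background intensity per spot are not normalized, and a table of log2 values made in limma by Edwards background correction and quantile normalization. The number of arrays limits the precision.

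The same correction and normalization were applied to the deposited intensities with limma 3.58.1 in R 4.3.3, without control and outlier-flagged spots, and the spots of a probe were averaged. The resulting values correlated with the authors' table at r of 0.9991 or more on each array. A probe was dropped when at least 3 of 4 arrays of every group were not well above background. One linear model of the 3 groups (lmFit, eBayes) used the 12 arrays together, and two-sided p-values were adjusted by Benjamini-Hochberg over 33467 probes. A call needs a change of 0.6 or more on the log2 scale beside an adjusted p below 0.05. The brightest probe stands for a gene. Probe positions are those of the files (hg19). Promoters are RefSeq windows of GRCh38.p14, used for sequence only. The procedure was tested on simulated data with independent noise for each probe and array. These data held no slide effect and no deviating array, so the test says nothing of either. Python 3.11.15, pandas 2.3.3 and matplotlib 3.10.9 served for summaries and figures.

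The 10 genes, the pathway and marker lists, the tests and the rule for named genes (every member, up to 4 called genes of largest change per direction from each list, or the 2 of largest absolute change where none was called, and the 5 genes most like CHAC1) were chosen with earlier results of these data known. Outside this rule, and after their values were seen, CEBPB, ATF4, SLC7A11, CHAC2, CEBPG, COL1A2, HNF4A, ALB and FGA and the dimmer probes of list genes are named, while APOB and APOH, the hepatocyte genes of largest change (0.59 and -0.57 at 42 µM, neither called), have no other mention. Alternatives were normexp (offset 50), 2 scalings to the 75th percentile, the authors' table, no filter or a strict filter, slide as a fixed or random block, the replicate number as a block, only the groups compared, array weights, other log2 limits (1 or none), and each array left out.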

Additional observations from a re-analysis of the deposited data

Results flagged for a closer look

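Within groups of 4 arrays, 3 of 42 combinations of a probe and a group had one array far from the other 3 (its gap to the nearest, over the range of the group, exceeded Dixon's 95% critical value, which chance alone gives in about 1 of 20 groups). CHAC1 on 28 µM replicate 4 read 8.99 on the log2 scale, against 11.48 for the nearest array of its group. GPX4 on DMSO replicate 1 read 12.28, against 11.79 for the nearest, and the brighter GSR probe on the same array read 11.53, against 11.23.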

How the results depend on the processing

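Of 42 results for single probes (14 probes, 3 comparisons), 33 kept their side of the threshold in all 25 alternatives and none changed direction in a call. With slide as a fixed block 0 of the 10 genes was called at 42 µM, although the log2 fold changes were 3.09 for CHAC1 (limma adjusted p = 0.0598) and 1.65 for CTH, and the processed signal scaled to the 75th percentile left 3, with OPLAH at 0.88 (limma adjusted p = 0.0502). Leaving out 1 array gave 0 to 4 called genes at 42 µM (0 without the second DMSO or the second 42 µM array) and 0 to 4 at 28 µM (4 without replicate 4). Whether the replicate numbers pair the arrays was not settled. Deviations of arrays with the same number correlated at -0.46 to 0.62, and arrays of different numbers were not compared. The fit with the replicate block called 4 of the 10 genes at 42 µM and 0 at 28 µM. Over all genes it called 621 higher and 485 lower at 42 µM, against 381 and 343 in the main fit. Of the 114 measured pathway list genes, 11 were called higher and 2 lower at 42 µM, where 1.58% and 1.42% of all genes were. The count lower is near that share. The count higher was 7 with a log2 limit of 1, 6 with the processed signal and 0 with the slide block, and 0 to 13 with 1 array left out. The share of all genes called higher moved as well, to 0.712% with a log2 limit of 1 and 0.832% with the processed signal. The count lower was 1 with no filter, with normexp or with the processed signal, 0 with a log2 limit of 1 or the slide block, 4 with only the groups compared or the replicate block, and 0 to 3 with 1 array left out. Over all genes, the count lower was 293 with the processed signal and 443 with only the groups compared. At 28 µM, 0 to 12 list genes were called higher and 0 to 1 lower with 1 array left out. The 12 were found without replicate 4, where 1.45% of all genes were called higher. The methionine cycle median at 28 µM turned from 0.10 to -0.074 with the Edwards values and to -0.0703 with the processed signal, both scaled to the 75th percentile. The cause of these changes was not tested. Signal over background did not limit the 10 genes, but 4 arrays per group limit what can be told of GPX4 and of the dimmer GCLM probe.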
